A study of Rattus norvegicus with 144 samples.

Results

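A set of 4 genes of the integrated stress response, Atf3, Trib3, Asns and Fgf21, was followed in rat liver after acetaminophen, a pain reliever whose reactive metabolite depletes glutathione and kills hepatocytes at high doses. They were found by their symbols among the annotated probes, and each of the 4 was covered by 1 probe and so by 1 of the 18978 gene rows tested. Every rat was a male F344/N rat, an inbred laboratory strain, aged 10-12 weeks, that had taken the drug or its vehicle, 0.5% ethyl cellulose, by oral gavage split into a pair of doses. The 12 groups of 6 rats were vehicle, 150, 1500 and 2000 mg/kg at each of 3, 6 and 24 h, and the left liver lobe was sampled. RNA of each of the 72 rats was hybridised on 2 two-colour arrays with exchanged dyes, against pooled RNA of 6 vehicle rats of the same time. The tissue was a whole lobe, so a change could come from any cell type in it.

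The integrated stress response begins when kinases that sense amino acid shortage, misfolded protein in the endoplasmic reticulum, heme shortage or double-stranded RNA phosphorylate the initiation factor eIF2alpha. Most translation then falls, while the transcription factor ATF4 is translated more and switches on genes of amino acid supply, redox defence and feedback control. Atf3 encodes a stress-induced bZIP transcription factor of the ATF/CREB family, and Trib3 a pseudokinase that binds AKT and damps ATF4 and CHOP. Asns encodes asparagine synthetase, which makes asparagine from aspartate and glutamine, and Fgf21 a hormone that the liver secretes in fasting, protein restriction and organelle stress. All 4 are known ATF4 targets in mammalian cells.

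ATF4 with a C/EBP partner binds a composite element read as TGATGNAA, so the 250 bases before the start of each gene are shown for the members that RefSeq's rat promoter table (GRCr8) held, with any match in capitals. The Trib3 window lay at chr3:161275534-161275783, the Asns window at chr4:36769416-36769665 and the Fgf21 window at chr1:105221377-105221626, all on the minus strand.
Trib3: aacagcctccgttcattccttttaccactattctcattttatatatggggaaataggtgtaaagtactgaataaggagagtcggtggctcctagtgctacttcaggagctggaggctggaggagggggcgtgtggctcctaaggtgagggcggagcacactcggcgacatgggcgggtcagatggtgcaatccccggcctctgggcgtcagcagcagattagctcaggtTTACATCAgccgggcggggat
Asns: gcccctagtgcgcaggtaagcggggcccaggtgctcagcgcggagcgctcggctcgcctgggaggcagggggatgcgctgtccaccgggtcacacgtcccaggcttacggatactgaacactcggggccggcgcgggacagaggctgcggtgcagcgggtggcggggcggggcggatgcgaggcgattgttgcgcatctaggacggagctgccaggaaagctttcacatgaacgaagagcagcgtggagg
Fgf21: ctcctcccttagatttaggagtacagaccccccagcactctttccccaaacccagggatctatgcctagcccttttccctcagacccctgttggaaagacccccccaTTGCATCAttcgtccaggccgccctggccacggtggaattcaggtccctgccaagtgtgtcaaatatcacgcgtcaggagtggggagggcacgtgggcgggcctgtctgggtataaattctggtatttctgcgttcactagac
The Trib3 window held TTACATCA, the element on the opposite strand, at 21 to 14 bases before the start. The Fgf21 window held TTGCATCA, again on the opposite strand, at 143 to 136 bases before it. No match lay in these 250 bases of Asns. Searched on both strands, the element occurred in 1139 of 33469 windows of the same length (3.40%). The palindrome TGACGTCA of CREB-type factors occurred in 1.59% of windows and TGACNNNGC, the motif of NRF2, in 10.1%, and neither occurred in the 3 windows shown. A match of letters does not show that a factor binds there.

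Values below are log2 ratios of a rat over its vehicle pool, on the assumption that the deposited values are log10 ratios. The direction, taken from the dyes in the labels, is likely and not certain: it rests on genes that respond to the drug in rat liver, such as Nqo1 and Gclm, being higher at high doses. The ratios carry no absolute level, so the labelled tissue could not be checked by the level of its markers, and levels cannot be compared between genes. The 2 arrays of a rat ran opposite to each other before turning in 63 of 72 rats, but 12 rats correlated above -0.1. A set of 49 arrays shared 500 blank probes and is called the blank set here, and 23 rats had both of their arrays in it. No member had a blank or exactly 0 value. For Atf3 and Asns the 2 arrays of a rat disagreed more than for the others. The array with the rat in Cy5 exceeded the other by 0.50 ± 1.05 (SD, n = 72 rats) for Atf3 and by 0.59 ± 0.81 for Asns. For Trib3 this gap was 0.11 ± 0.15, and for Fgf21 it was -0.19 ± 0.23.

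At 150 mg/kg no member passed the test at any time, and 0% of all gene rows were called higher (limma, Benjamini-Hochberg adjusted p under 0.05, 6 against 6 rats). Over the 36 rats given vehicle or 150 mg/kg, Atf3 lay between -0.67 and 1.48 and Trib3 between -0.49 and 1.05. Asns lay between -0.94 and 1.43 and Fgf21 between -0.63 and 0.62. These ranges are the baseline against which the rats at the high doses can be read.

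At 3 h none of the 4 members passed at 1500 mg/kg, where 3.39% of gene rows were called higher, or at 2000 mg/kg, where 4.92% were. Atf3 had the widest values: at 2000 mg/kg the lowest rat was at 0.75, the median at 1.54 and the highest, rat 7365, at 3.62, while vehicle rats ran from -0.31 to 0.92. Of the 6 rats, 5 exceeded every vehicle rat. The difference from vehicle was 1.33 ± 0.65 (SE, here and below) with an adjusted p of 0.224, and an exact permutation test of Atf3 alone gave an unadjusted p of 0.00433. Without the rats whose arrays correlated above -0.1, of which rat 7365 was 1, the difference was 0.84. Trib3 differed from vehicle by 0.56 ± 0.34, 0.64 ± 0.34 and 0.51 ± 0.34 at 150, 1500 and 2000 mg/kg. The unadjusted exact permutation p of Trib3 at these doses was 0.0173, 0.0108 and 0.0238, and none held after adjustment over all rows. Asns differed by 0.50 ± 0.24 (adjusted p = 0.198) and Fgf21 by -0.07 ± 0.29 (adjusted p = 0.93) at 2000 mg/kg.

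**Figure D1:**
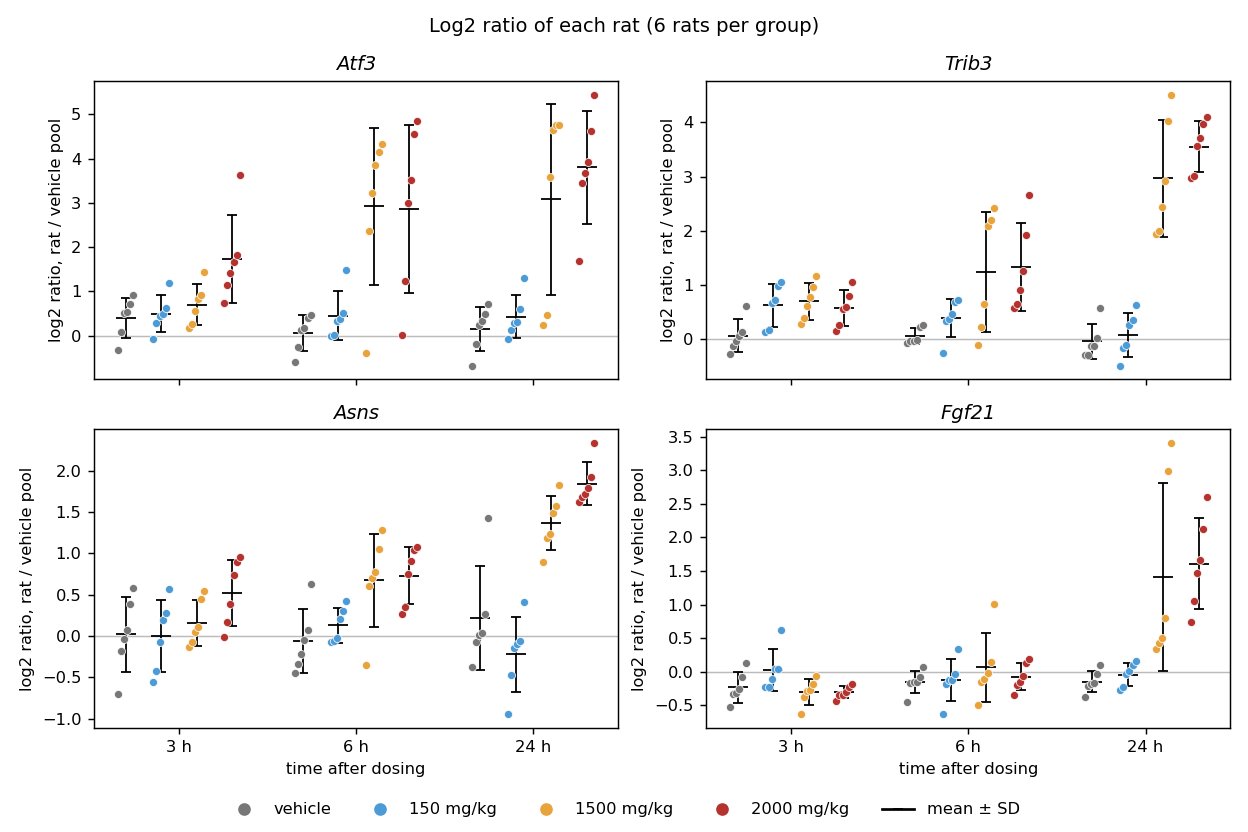
Log2 ratio over the vehicle pool (vertical axis) for each rat in each group of 6, by time and dose, with the mean and SD in black. Atf3 and Trib3 spread upward at 1500 and 2000 mg/kg from 6 h, while Fgf21 is above the vehicle range in every rat of these doses at 24 h and in 4 of these 12 rats at 6 h.

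Atf3 had the largest rise of all 18978 rows at 6 h and 1500 mg/kg. Vehicle rats lay between -0.58 and 0.46 at 6 h. At 1500 mg/kg the lowest rat was at -0.40, the median was 3.53 and the highest was 4.33. At 2000 mg/kg these were 0.01, 3.25 and 4.85. At each of these doses 5 of 6 rats exceeded every vehicle rat, and 1 (rat 0644 and rat 6930) lay within the vehicle range. Rat 7334, at 1500 mg/kg, was at 2.37 from arrays at 4.54 and 0.21, the latter within the vehicle range. The rise was 2.86 ± 0.65 (adjusted p = 0.00186), or 7.27-fold, at 1500 mg/kg and 2.80 ± 0.65 (adjusted p = 0.0015) at 2000 mg/kg. At 24 h the 1500 mg/kg rats again fell apart: rats 0504 and 5389 were at 0.23 and 0.48, inside the vehicle range of -0.67 to 0.71, and the other 4 lay between 3.59 and 4.76. The rise there was 2.92 ± 0.65 (adjusted p = 0.000422). At 24 h and 2000 mg/kg the values ran from 1.68 to 5.44 around a median of 3.80, all above vehicle, and the rise was 3.65 ± 0.65 (adjusted p = 1.06e-05), or 12.5-fold. The SE of a gene comes from a spread pooled over the 12 groups. With vehicle and 1500 mg/kg of 24 h fitted alone, where the wide group sets its own spread, the adjusted p was 0.057.

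Trib3 rose at 6 h and again more strongly by 24 h, and did so in every rat of the later time. At 6 h vehicle rats lay between -0.07 and 0.26. The 1500 mg/kg rats split into 3 between -0.12 and 0.64 and 3 between 2.08 and 2.41, with a rise of 1.19 ± 0.34 (adjusted p = 0.0178). This call was lost without any 1 of those 3 higher rats, 1376, 2123 and 5407 (adjusted p = 0.103, 0.0804 and 0.0722), and with these 2 groups fitted alone (adjusted p = 0.145). The 2000 mg/kg rats lay between 0.58 and 2.66, none overlapping vehicle, with a rise of 1.27 ± 0.34 (adjusted p = 0.00624). At 24 h vehicle rats lay between -0.30 and 0.58. The 1500 mg/kg rats lay between 1.93 and 4.51 around a median of 2.68, and the 2000 mg/kg rats between 2.98 and 4.11 around 3.63. Neither group overlapped vehicle. The rises were 3.02 ± 0.34 (adjusted p = 3.43e-10), or 8.08-fold, and 3.60 ± 0.34 (adjusted p = 5.37e-13), or 12.1-fold. Trib3 had the smallest adjusted p of the members in both comparisons of 24 h.

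Asns rose least of the 3 members that responded at 6 h. Vehicle rats of 6 h lay between -0.45 and 0.63, 1500 mg/kg rats between -0.35 and 1.28 and 2000 mg/kg rats between 0.26 and 1.08. These groups overlapped. The rises were 0.73 ± 0.24 (adjusted p = 0.043) and 0.79 ± 0.24 (adjusted p = 0.0177). The call at 1500 mg/kg was lost in 10 of 12 fits that left out 1 rat, with values from 0.61 to 0.94. At 24 h the lowest, median and highest rats were 0.89, 1.36 and 1.83 at 1500 mg/kg and 1.62, 1.75 and 2.34 at 2000 mg/kg. Of the vehicle rats 5 lay between -0.37 and 0.26, and rat 5999 stood at 1.43, above 3 of the 1500 mg/kg rats and below every 2000 mg/kg rat. The rises were 1.15 ± 0.24 (adjusted p = 0.000137), or 2.22-fold, and 1.63 ± 0.24 (adjusted p = 1.55e-07), or 3.09-fold.

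Fgf21 was the member with no call before 24 h. At 6 h the difference from vehicle was 0.22 ± 0.29 (adjusted p = 0.825, 95% interval -0.36 to 0.80) at 1500 mg/kg and 0.09 ± 0.29 (adjusted p = 0.934, interval -0.49 to 0.66) at 2000 mg/kg. Of these 12 rats 4 exceeded the highest vehicle rat (0.06), of which rat 2123 was at 1.01 and the other 3 at no more than 0.19. At 24 h the vehicle rats lay between -0.37 and 0.10. At 1500 mg/kg 4 rats lay between 0.34 and 0.80, and rats 8194 and 9398 were at 2.99 and 3.40. At 2000 mg/kg the lowest, median and highest were 0.75, 1.57 and 2.61. All 12 rats were above every vehicle rat. The rises were 1.56 ± 0.29 (adjusted p = 3.1e-05), or 2.94-fold, and 1.75 ± 0.29 (adjusted p = 2.49e-06), or 3.37-fold. The SD of the 1500 mg/kg group was 1.40 against 0.16 for vehicle, and with those 2 groups fitted alone the adjusted p was 0.0963.

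In counts, 3 of 4 members rose at 6 h at each high dose, where 3.65% of all gene rows at 1500 mg/kg and 5.31% at 2000 mg/kg were called higher. All 4 rose at 24 h at both, where 10.2% and 11.8% were. Ordered by group mean, the 2 highest groups for each member were 24 h at 2000 mg/kg and then 24 h at 1500 mg/kg. For Atf3 these were 3.80 ± 1.27 (SD, n = 6) and 3.08 ± 2.16, followed by 6 h at 1500 mg/kg (2.92 ± 1.78), 6 h at 2000 mg/kg (2.86 ± 1.90) and 3 h at 2000 mg/kg (1.74 ± 1.0). For Trib3 they were 3.56 ± 0.47 and 2.97 ± 1.08, with 1.33 ± 0.82 and 1.24 ± 1.12 at 6 h and 2000 and 1500 mg/kg next. For Asns they were 1.84 ± 0.26 and 1.37 ± 0.33, with 0.73 ± 0.35 at 6 h and 2000 mg/kg, 0.68 ± 0.56 at 6 h and 1500 mg/kg and 0.52 ± 0.40 at 3 h and 2000 mg/kg next. For Fgf21 they were 1.61 ± 0.68 and 1.41 ± 1.40, and the other 10 group means lay between -0.30 and 0.07. In each of these 4 orders every group overlapped the group next to it.

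**Figure D2:**
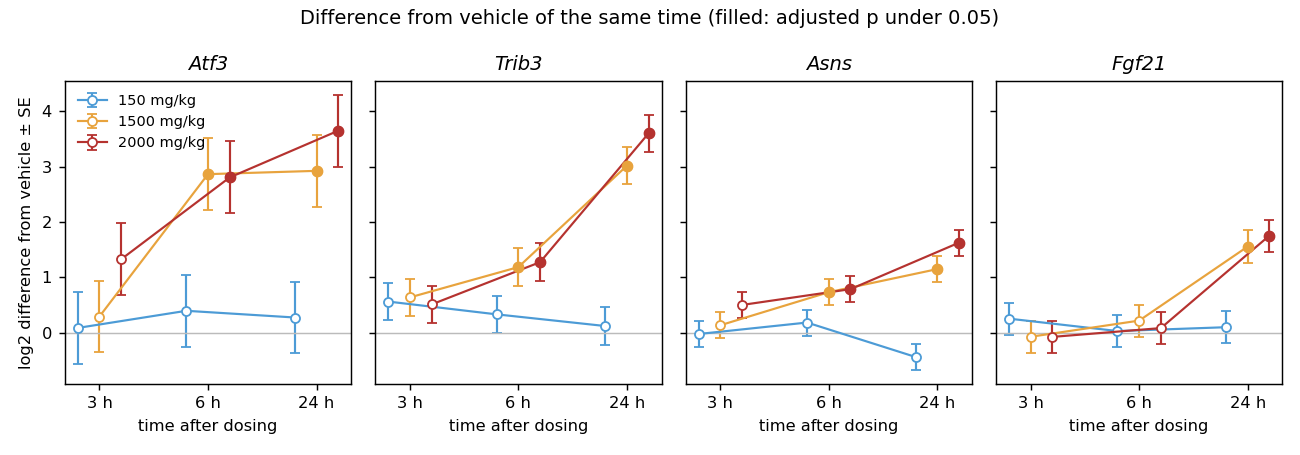
Log2 difference from the vehicle rats of the same time (vertical axis, ± SE, 6 against 6 rats) by time for each dose; filled points passed an adjusted p of 0.05 and lines join separate groups of rats. Atf3 is already at 2.86 and 2.80 at 6 h, Trib3 goes from 1.19 and 1.27 at 6 h to 3.02 and 3.60 at 24 h, and Fgf21 leaves the baseline at 24 h.

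No member differed between 2000 and 1500 mg/kg at any time after adjustment (adjusted p = 1 in all 12 comparisons), where 0.0105%, 0.00527% and 0% of all rows did at 3, 6 and 24 h. At 24 h the difference was 0.72 ± 0.65 for Atf3 (95% interval -0.57 to 2.02), 0.58 ± 0.34 for Trib3 (-0.09 to 1.26), 0.48 ± 0.24 for Asns (0.01 to 0.95) and 0.20 ± 0.29 for Fgf21 (-0.38 to 0.78). At 6 h the 4 differences lay between -0.14 and 0.09.

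The change of the response with time was tested as a difference of differences, each time against its own vehicle rats. For Trib3 the difference from vehicle grew from 6 to 24 h by 1.83 ± 0.48 at the lower high dose (adjusted p = 0.00699) and 2.33 ± 0.48 at the higher (adjusted p = 0.000336), where 4.25% and 6.53% of all rows grew. In the same order, for Fgf21 it grew by 1.34 ± 0.41 (adjusted p = 0.0261) and 1.67 ± 0.41 (adjusted p = 0.00286). For Atf3 the step from 6 to 24 h was 0.06 ± 0.92 (adjusted p = 0.994) and 0.84 ± 0.92 (adjusted p = 0.637), with a 95% interval at 2000 mg/kg of -0.99 to 2.67. For Asns it was 0.42 ± 0.33 (adjusted p = 0.529) and 0.84 ± 0.33 (adjusted p = 0.0876). From 3 to 6 h no member passed, where 0.585% and 1.96% of rows grew, and the widest step was that of Atf3 at 1500 mg/kg, 2.57 ± 0.92 (adjusted p = 0.209). From 3 to 24 h, where 5.23% and 7.15% of rows grew, Trib3, Asns and Fgf21 passed at both doses, and Atf3 passed at 1500 mg/kg alone (2.63 ± 0.92, adjusted p = 0.0484, against 2.32 ± 0.92, adjusted p = 0.0759, at 2000 mg/kg). With the 4 groups of a step fitted alone, at 1500 mg/kg the calls from 6 to 24 h were lost for Trib3 (adjusted p = 0.105) and Fgf21 (adjusted p = 0.218), and those from 3 to 24 h for Atf3, Asns and Fgf21 (adjusted p = 0.0866, 0.0873 and 0.0894). At 2000 mg/kg no call was lost in that fit, and Atf3 from 3 to 24 h gained one (adjusted p = 0.0279). Whether these steps differ between members was not tested.

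The blank set divided the rats of 24 h and 1500 mg/kg 3 to 3, and its 3 rats, 8194, 9398 and 9537, had the 3 highest values of Atf3, Trib3 and Fgf21 in the group. With rats that had no array in the set (3 dosed against 4 vehicle), the difference from vehicle was 1.39 ± 0.83 for Atf3 (adjusted p = 0.437), 2.26 ± 0.42 for Trib3 (adjusted p = 0.00137), 0.95 ± 0.35 for Asns (adjusted p = 0.128) and 0.66 ± 0.21 for Fgf21 (adjusted p = 0.0831). With rats that had both arrays in it (3 against 2) the values were 4.35 ± 0.93, 3.68 ± 0.45, 1.39 ± 0.30 and 2.37 ± 0.53, each past the threshold. At 24 h and 2000 mg/kg all 4 members passed in both sets: outside it Atf3 rose by 4.03 and Fgf21 by 1.39, inside it by 3.15 and 2.04, and Trib3 by 3.32 and 3.79. At 6 h and 2000 mg/kg Atf3 was at 2.60 ± 0.89 (adjusted p = 0.118) outside and 3.01 ± 0.83 (adjusted p = 0.0461) inside the set. At 6 h and 1500 mg/kg only 1 dosed rat was in the set, and outside it Atf3 was at 2.76 ± 0.80 (adjusted p = 0.0706) with 5 against 3 rats. These fits hold fewer rats than the whole, and the part of the blank set in the split at 1500 mg/kg was not tested.

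Within the 12 rats of the 2 high doses at 24 h, Trib3 and Fgf21 went together from rat to rat. Pearson's r was 0.888 and Spearman's rho 0.909 (permutation adjusted p = 0.0009 and 0.00054 over 6 pairs of members, unadjusted p = 0.00015 for r). After the dose mean was taken from each rat r was 0.919, and without rats 0504 and 5389, farthest from the median of Trib3, it was 0.878. Within the blank set r was 0.763 (n = 6, exact permutation p = 0.0833), and outside it 0.930 (n = 6, exact permutation p = 0.00556). None of the other 5 pairs passed. For Atf3 and Trib3 r was 0.620 (adjusted p = 0.095) and fell to 0.064 without the same 2 rats, so over the 12 rats that relation rested on them. Both had no array in the blank set. Outside the set r of this pair was 0.824 (n = 6, exact permutation p = 0.0639), and within it 0.004 (n = 6, exact permutation p = 0.817). For Atf3 and Fgf21 r was 0.393 (adjusted p = 0.25). The same appeared in single rats: rats 0504 and 5389 had Atf3 at the vehicle level while their Trib3, at 1.93 and 2.0, was more than 1 above every vehicle rat. Rat 9540, at 2000 mg/kg, had the lowest Atf3 of its group (1.68) and the second highest Trib3 (3.97) and Fgf21 (2.12).

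At 6 h, in a comparison added after the values were seen, Atf3 with Trib3 passed by both measures (r = 0.728, rho = 0.818, permutation adjusted p = 0.0221 and 0.0114). Trib3 with Asns passed by r alone (r = 0.708, rho = 0.622, permutation adjusted p = 0.0221 and 0.0706), and Atf3 with Asns by rho alone (r = 0.528, rho = 0.706, permutation adjusted p = 0.151 and 0.0396). Without the 2 rats farthest from the median, r was 0.817 (adjusted p = 0.0186) for Atf3 with Trib3, 0.616 (adjusted p = 0.104) for Trib3 with Asns and 0.761 (adjusted p = 0.0379) for Atf3 with Asns. Among the 8 rats outside the blank set r for these pairs was 0.780, 0.777 and 0.437 (permutation p = 0.0205, 0.0154 and 0.283), and the 4 rats inside it were too few. The 3 rats of 1500 mg/kg with Trib3 above 2, rats 5407, 2123 and 1376, also had the 3 highest Atf3 values of their group, 3.85, 4.15 and 4.33. Rats 0644 and 6930, with Atf3 at the vehicle level, had Trib3 at 0.22 and 0.91. No pair with Fgf21 passed at 6 h. All genes of a rat share its arrays, their normalization and the pool.

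**Figure D3:**
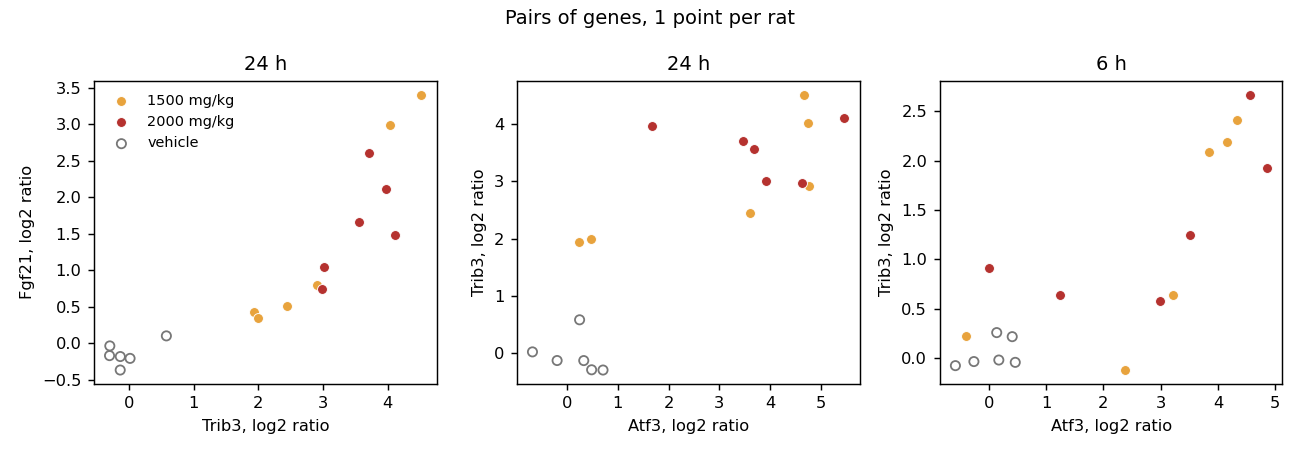
Log2 ratios of 2 members in each rat: Fgf21 against Trib3 at 24 h (left), and Trib3 against Atf3 at 24 h (middle) and at 6 h (right), with vehicle rats as open circles. At 24 h Fgf21 climbs with Trib3 (r = 0.888 over the 12 dosed rats), while 2 rats of 1500 mg/kg lie at the vehicle level of Atf3 with Trib3 near 2.

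The genes whose ratios ran most like each member over the 72 rats were sought among 9653 rows with a single gene symbol, as a description. The rats share the 12 groups, so a high r says mainly that a gene changed in the same groups. For Atf3 they were the stress-induced zinc finger gene Zfand2a (r = 0.911), the heat shock protein Hspa1a (0.899), the heme oxygenase Hmox1 (0.893), the AP-1 subunit Jun (0.873) and Ddit3 (0.870), which encodes CHOP. After the group means were taken out these were still 0.833, 0.800, 0.823, 0.790 and 0.768. For Trib3 they were the cationic amino acid transporter Slc7a1 (0.924), the tyrosyl-tRNA synthetase Yars1 (0.901), Zfand2a (0.892), the ribosome assembly factor Nob1 (0.885) and the amino acid transporter subunit Slc3a2 (0.884). For Asns they were Slc7a1 (0.827), the serine synthesis enzyme Phgdh (0.808), Trib3 (0.798), Nqo1 (0.793) and the nuclear import receptor Ipo7 (0.792). Within groups the r of these 5 with Asns fell to between 0.24 and 0.45. For Fgf21 they were Gch1 of tetrahydrobiopterin synthesis (0.847), the glutathione transferase Gstm4 (0.847), the aldehyde reductase Akr7a2 (0.844), the methyltransferase-like Comtd1 (0.841) and the vitamin D receptor Vdr (0.831). Trib3 ranked at place 8 for Fgf21 (0.825) and Atf3 at place 605 (0.538).

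Upstream of the members, genes of the arm that acts on eIF2alpha rose mainly at 24 h. Of 15 measured kinases, phosphatases and subunits of eIF2 and eIF2B, 7 rose at 1500 mg/kg of 24 h and 10 at 2000 mg/kg, with 0 falling, with list medians of 0.25 and 0.33 against -0.01 for all gene rows at 1500 mg/kg. At 3 and 6 h no more than 2 rose. Over all gene rows 10.2% and 11.8% were called higher at 24 h, and between 3.39% and 5.31% at 3 and 6 h. The kinase genes contributed little: Eif2ak4, the sensor of uncharged tRNA, rose by 0.21 ± 0.07 (adjusted p = 0.019) at 24 h and 2000 mg/kg, and Eif2ak3, the sensor in the endoplasmic reticulum, fell by 0.69 ± 0.15 (adjusted p = 0.00056) at 6 h and 2000 mg/kg. Eif2s1, which encodes eIF2alpha itself, rose by 0.86 ± 0.12 and 0.93 ± 0.12 at 24 h. The feedback phosphatase subunit Ppp1r15a rose in all 6 comparisons of the high doses, from 1.02 ± 0.35 to 1.47 ± 0.35. Transcript levels do not report the phosphorylation of eIF2alpha.

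Of 10 measured transcription factors of the response, 1 fell and 0 rose at 3 h at each high dose, where 2.46% and 4.1% of all gene rows were called lower. At 6 h 3 rose at each dose, against 3.65% and 5.31% of all rows, while 1 fell at 1500 mg/kg and 2 at 2000 mg/kg. At 24 h 6 rose and 1 fell at each dose, against 10.2% and 11.8% of rows called higher. Atf4, whose product is set mainly by translation, differed from vehicle by 0.39 ± 0.21 (adjusted p = 0.32) and 0.56 ± 0.21 (adjusted p = 0.071) at 6 h and rose by 1.21 ± 0.21 and 1.24 ± 0.21 at 24 h. Ddit3 rose by 1.0 ± 0.32 and 1.05 ± 0.32 at 6 h and by 1.26 ± 0.32 and 1.11 ± 0.32 at 24 h. Nupr1, a stress-induced chromatin protein, rose by 1.14 ± 0.28 and 1.41 ± 0.28 at 6 h and by 1.35 ± 0.28 and 1.39 ± 0.28 at 24 h. Nfe2l2, which encodes NRF2, fell by 1.02 ± 0.15 and 1.19 ± 0.15 at 3 h and by 0.59 ± 0.15 at 6 h and 2000 mg/kg.

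The other ATF4 targets were called at times that ranged from 3 to 24 h, and their groups were not tested against each other. Among all gene rows 3.39% to 5.31% were called higher at 3 and 6 h, and 10.2% and 11.8% at 24 h. Of 10 measured aminoacyl-tRNA synthetase and tRNA export genes, 0 rose at 3 h at either dose, 0 and 1 rose at 6 h, and 8 rose and 0 fell at 24 h at each dose. Yars1 was the highest at 2000 mg/kg of 24 h, at 1.27 ± 0.13. Of 9 amino acid transporters, 6 rose at 24 h and 1500 mg/kg and 5 at 2000 mg/kg, with list medians of 1.31 and 1.19. Slc7a1 rose by 2.66 ± 0.33 and 2.95 ± 0.33, and the cystine transporter Slc7a11 by 1.39 ± 0.24 and 1.95 ± 0.24. The glutamine transporter Slc38a2 rose by 3.31 and 3.63 at 3 h, by 2.10 and 2.57 at 6 h and by 1.31 and 1.19 at 24 h. Of 13 genes of amino acid synthesis and one-carbon metabolism, 5 rose and 1 fell at 24 h at each dose, where 11.4% and 12.5% of all gene rows were called lower. Phgdh rose by 0.89 ± 0.27 and 0.88 ± 0.27 at 6 h and by 2.89 ± 0.27 and 3.16 ± 0.27 at 24 h, and Psat1, the next enzyme of serine synthesis, by 1.09 ± 0.29 and 1.14 ± 0.29 at 24 h. Oat, which breaks down ornithine, fell by 1.83 ± 0.19 and 1.87 ± 0.19. The aspartate aminotransferase Got1 was high at 3 and 6 h (1.95 to 2.48) and was at 0.17 and 0.23 at 24 h, where it did not pass.

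Of 18 measured ATF4 and CHOP targets in growth, redox and death, 7 to 8 rose at 3 and 6 h already and 8 to 9 at 24 h, and 1 fell, at 3 h and 2000 mg/kg. Between 3.39% and 5.31% of all gene rows were called higher at 3 and 6 h, and 10.2% and 11.8% at 24 h. Ddit4, an inhibitor of mTOR signalling, rose by 1.87 ± 0.26 and 2.06 ± 0.26 at 3 h, and the glutathione-degrading Chac1 by 1.24 ± 0.34 and 1.39 ± 0.34 at 6 h. Endoplasmic reticulum chaperones and degradation factors, controlled mainly by ATF6 and XBP1, were called in both directions before 24 h. Of 14 measured, 2 rose and 0 fell at 3 h at each high dose: Herpud1, a factor of protein degradation there, by 1.29 ± 0.18 and 1.37 ± 0.18, and Edem1, which directs misfolded glycoproteins to degradation, by 1.03 ± 0.20 and 1.04 ± 0.20. At 6 h 1 rose at each dose, Edem1 by 1.55 ± 0.20 and 1.89 ± 0.20, while 4 fell at 1500 mg/kg and 3 at 2000 mg/kg, where 3.23% and 5.84% of all gene rows were called lower, and the other 9 and 10 did not pass. Hspa5, the chaperone BiP, fell by 0.58 ± 0.17 (adjusted p = 0.025) at 6 h and 1500 mg/kg and was at -0.35 ± 0.17 (adjusted p = 0.22) at 2000 mg/kg. At 24 h 9 of the 14 rose at each dose, Hspa5 by 0.96 ± 0.17 and 0.90 ± 0.17. In the groups of 6 h where Atf3, Trib3 and Ddit3 were higher than vehicle, Edem1 was higher as well and Hspa5 was not. A link of these genes to the members was not tested.

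**Figure D4:**
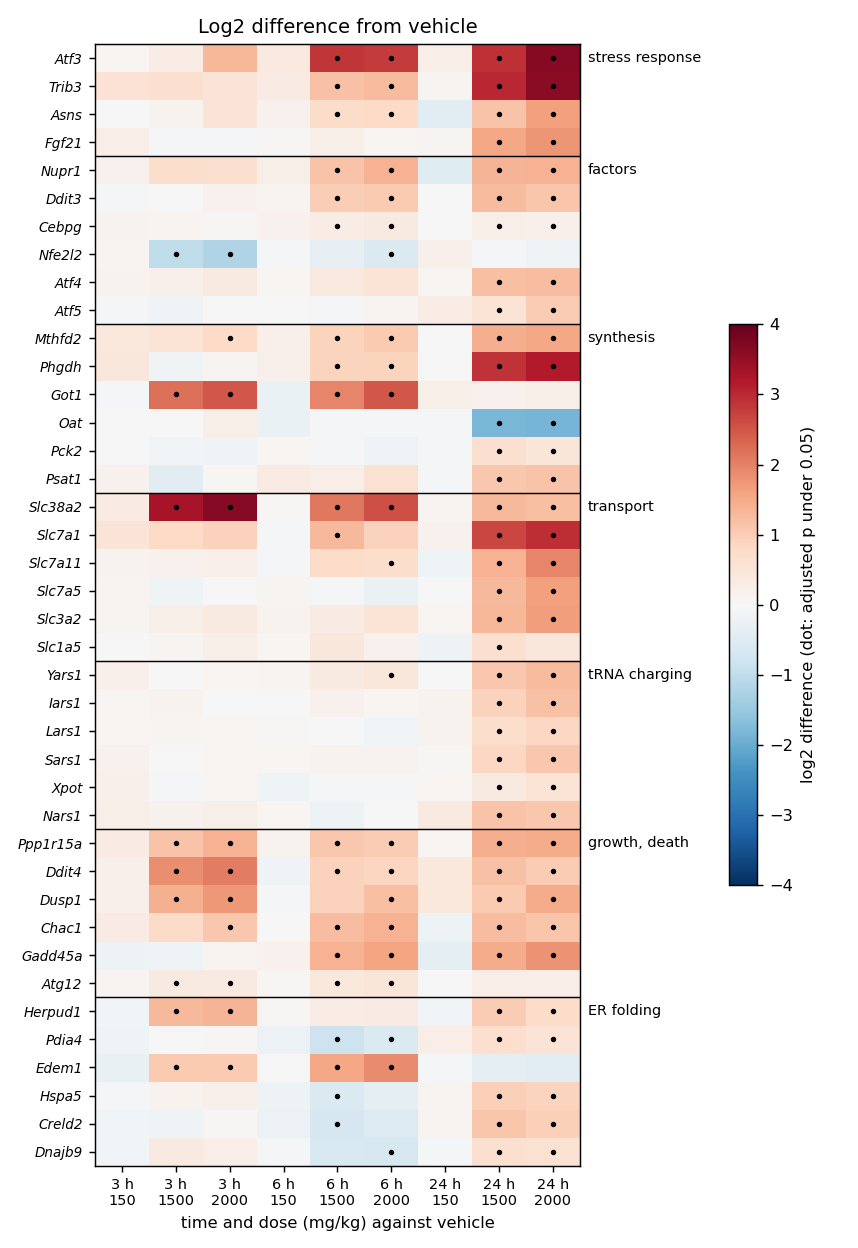
Log2 difference from vehicle (colour) of the 4 members and of up to 6 genes per list, in 9 comparisons ordered by time and dose in mg/kg; dots mark an adjusted p under 0.05. The tRNA charging genes have 1 dot before 24 h, Yars1 at 6 h and 2000 mg/kg (0.46), and dots at both high doses of 24 h; several growth and death genes and Slc38a2 are high from 3 h, and the 150 mg/kg columns have no dot.

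Genes of other programs that are known to share these members were counted in the same way. At 3 h 3.39% and 4.92% of all gene rows were called higher and 2.46% and 4.1% lower (1500 and 2000 mg/kg). At 6 h these shares were 3.65% and 5.31% higher and 3.23% and 5.84% lower. At 24 h they were 10.2% and 11.8% higher and 11.4% and 12.5% lower. Of 13 measured AP-1 and immediate early genes, the company of Atf3, 2 rose at 3 h and 1500 mg/kg. At 3 h and 2000 mg/kg 3 rose and 1 fell. At 6 h 6 and 5 rose, and at 24 h 10 rose at each dose. Jun was at 1.78 ± 0.45 and 1.62 ± 0.45 at 6 h and Egr1 at 3.10 ± 0.65 and 2.76 ± 0.65 at 24 h. Of 14 measured PPAR-alpha targets, the fasting program that also drives Fgf21, 1 rose and 1 fell at 3 h and 2 rose at 6 h, at each high dose. At 24 h 1 rose and 2 fell at the lower of the high doses, and at the higher 3 rose and 2 fell. Ppara itself was at -0.32 ± 0.18 and -0.16 ± 0.18 and did not pass at 24 h, but passed in 2 high-dose comparisons of earlier times. The oxidation enzyme Acadm fell by 0.88 ± 0.15 and 0.75 ± 0.15 at 24 h. Of 9 measured genes of FGF21 receptors and signalling, 1 rose and 1 fell at 3 h and 1500 mg/kg. At 3 h and 2000 mg/kg 1 rose and 2 fell, and the lowest differences at these doses were -2.41 and -2.79. At 6 h 1 fell at each high dose, and at 24 h 1 rose and 1 fell at each. Fgfr1 was at -0.23 ± 0.15 and -0.35 ± 0.15 and Fgfr4 at -0.03 ± 0.09 and -0.10 ± 0.09 at 24 h, none past the threshold. Fgfr4 passed in 2 of the 6 high-dose comparisons, at earlier times. Of 19 NRF2 targets 1 rose and 1 fell at 3 h at each high dose. At 6 h 2 rose and 1 fell at 1500 mg/kg, and 6 rose and 2 fell at 2000 mg/kg. At 24 h 15 and 19 rose and 0 fell. Nqo1 and Gclm are in this list, and the direction of the ratios was judged by their rise. With vehicle and 1500 mg/kg of 24 h fitted alone, fewer genes were called in either direction in 7 of these lists: 4 in place of 7 for the eIF2 arm, 3 in place of 7 for the transcription factors, 3 in place of 8 for tRNA charging, 2 in place of 8 for growth and death, 3 in place of 9 for the endoplasmic reticulum, 3 in place of 10 for AP-1 and 0 in place of 3 for PPAR-alpha targets. Slc7a11 is in the lists of both transporters and NRF2 targets, and Ppp1r15a and Dusp1 are also in 2 lists each.

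Markers of stellate cells changed from 3 h, where no member was called. Those of other cell types changed mainly at 24 h, where all 4 members were called at each high dose. The part of these cells in the members' changes was not tested. Of 7 stellate cell and fibroblast markers 2 fell at each high dose at 3 h, 1 fell at 6 h and 1500 mg/kg, 4 fell at 6 h and 2000 mg/kg, and 3 fell at each dose at 24 h. The shares of all gene rows called lower were 2.46% and 4.1% at 3 h and 3.23% and 5.84% at 6 h. At 24 h they were 11.4% and 12.5%. Pdgfrb, a growth factor receptor of stellate cells and fibroblasts, fell by 0.98 ± 0.16 and 1.09 ± 0.16 at 6 h. The mean log2 ratio of the 7 per rat at 6 h ran from -0.07 to 0.18 in vehicle, from -0.46 to -0.11 at 1500 mg/kg and from -0.52 to -0.19 at 2000 mg/kg, so neither dosed group overlapped vehicle. At 24 h these ranges were -0.12 to 0.04, -0.69 to -0.11 and -0.78 to -0.32. Before 24 h the other calls were 1 endothelial marker, higher at both doses of 3 and 6 h, and 1 neutrophil marker, higher at 6 h and 2000 mg/kg. Between 3.39% and 5.31% of all gene rows were called higher in these comparisons. Of 9 macrophage and Kupffer cell markers 4 fell at each high dose of 24 h. Their mean log2 ratio per rat ran from -0.28 to 0.36 in vehicle, from -0.44 to -0.01 at 1500 mg/kg and from -0.38 to -0.15 at 2000 mg/kg. Of 5 endothelial markers 3 and 4 fell at 24 h. Of 5 neutrophil markers 3 rose at the lower of these doses and 1 at the higher at 24 h. The shares of all gene rows called higher there were 10.2% and 11.8%. The mean log2 ratio of the 5 per rat ran from -0.49 to 0.15 in vehicle, around a median of -0.14. At 1500 mg/kg it ran from -0.11 to 1.55 around 0.24, and at 2000 mg/kg from -0.23 to 1.82 around -0.12. Of 8 hepatocyte markers 1 rose at each dose and 1 fell at 2000 mg/kg, and no cholangiocyte marker of 5 passed. In whole liver, fewer cells of a type and less RNA per cell cannot be told apart.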

How the data were processed

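Liver RNA of 72 rats was measured on 144 arrays. Per the series' design text and the labels, each rat was set against a same-time vehicle pool, but no source says if the pooled animals were those hybridised singly. The processed values deposited by the authors were taken as log10 ratios of Cy5 over Cy3. Their log base, direction, background correction and normalization are not given in these sources. With another base every log2 value would change by a common factor. Array medians lay between 0 and 0.000258, 7.74% of values were exactly 0 and 0.836% were blank. Time came from the labels and dose from the authors' deposited key.

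Ratios were brought to the log2 scale, the sign of arrays with the rat in Cy3 was turned, and a rat's 2 arrays were averaged, so n counts rats. No arrays were identical. Of 22075 probes, 12750 had 1 symbol, 5 several and 9320 none. Probes of 1 symbol were averaged. The Entrez gene of 12720 probes was in RefSeq's GRCr8 table, and 0 symbols needed updating. Contrasts of 12 group means were fitted over 18978 rows with limma 3.58.1 (R 4.3.3), Benjamini-Hochberg adjusted over all rows of a contrast, two-sided. Single-gene checks were exact permutation tests over 924 splits, whose smallest p is 0.00216. Correlations used 100000 permutations. The fit was tested on simulated data with known changes and, for each gene, the same spread in every group. It does not cover groups of unequal spread, such as those of Atf3 and Fgf21 at 24 h. The number of rats limits the precision.

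The members and the 17 lists (183 of 231 entries measured) were chosen with earlier results of these data known. Named genes were the members, the 5 most alike genes of each, up to 6 genes per list called in most high-dose comparisons, and fixed pathway genes whatever their values. Cebpb, Xbp1 and Klb were not used here. Rats singled out were chosen after their values were seen. Alternatives were array centring, either dye orientation, exact zeros as missing, 1 row per probe, quality weights, a dye term with the rat as a random block, the blank set as a covariate or split, the 12 low-correlating rats left out, fewer groups, other log bases and each rat left out.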

Additional observations from a re-analysis of the deposited data

Results flagged for a closer look

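In 5 of the 48 gene-by-group sets of 6 rats, the highest rat stood far from the other 5, where chance alone flags about 1 in 20. Atf3 of rat 7365 (3 h, 2000 mg/kg) was at 3.62, with its arrays at 5.74 and 1.5. Atf3 of rat 5870 (6 h, 150 mg/kg) was at 1.48, with its arrays at 3.96 and -0.99. Trib3 of vehicle rat 7375 (24 h) was at 0.58, with its arrays at 0.69 and 0.47. Asns of vehicle rat 5999 (24 h) was at 1.43, with its arrays at 2.15 and 0.72. Fgf21 of rat 5339 (3 h, 150 mg/kg) was at 0.62, with its arrays at 0.75 and 0.49.

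The difference from vehicle changed with time, by an interaction contrast in limma, in 11 of 24 tests. From 6 to 24 h it grew for Trib3 by 1.83 and 2.33 (1500 and 2000 mg/kg), and for Fgf21 by 1.34 and 1.67. From 3 to 24 h it grew at 1500 mg/kg by 2.63 for Atf3, 2.38 for Trib3, 1.01 for Asns and 1.63 for Fgf21. From 3 to 24 h at 2000 mg/kg it grew by 3.09 for Trib3, 1.12 for Asns and 1.83 for Fgf21. Each test compared 4 groups of 6 rats. With those 4 groups fitted alone, 5 of the 6 calls at 1500 mg/kg were lost, all but Trib3 from 3 to 24 h.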

How the results depend on the processing

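No called member result turned in direction under any alternative run, and all 8 member rises of 24 h at the high doses passed in each of 12 fits that left out 1 rat. The calls of 6 h were less stable: leaving out 1 rat gave 0.61 to 0.94 for Asns at 1500 mg/kg (2 of 12 passed), 0.71 to 0.93 for Asns at 2000 mg/kg (10 of 12, lost without vehicle rat 1871 or rat 9100) and 0.95 to 1.46 for Trib3 at 1500 mg/kg (9 of 12, lost without rats 1376, 2123 or 5407). The following member results lost their call. With the rat in Cy5 alone Asns was at 0.37 and 0.62 at 6 h (1500 and 2000 mg/kg) and at 0.72 at 24 h and 1500 mg/kg, and with the rat in Cy3 alone it was at 0.96 at 6 h and 2000 mg/kg. Asns at 6 h and 1500 mg/kg was at 0.73 in the random-block fit of all arrays with a dye term and at 0.72 with the blank set as a covariate. Without the 12 low-correlating rats, at 6 h, Trib3 was at 1.13 and Asns at 0.81 at 1500 mg/kg, and Atf3 was at 2.22, Trib3 at 0.95 and Asns at 0.80 at 2000 mg/kg. With no array in the blank set, a choice made after seeing the data, the 6 h values were Atf3 2.76, Trib3 1.21 and Asns 0.81 at 1500 mg/kg and 2.60, 1.46 and 0.85 at 2000 mg/kg, and at 24 h and 1500 mg/kg Atf3 was at 1.39, Asns at 0.95 and Fgf21 at 0.66. With both arrays in it Trib3 was at 1.09 and Asns at 0.73 at 6 h and 2000 mg/kg. With the compared groups alone Trib3 was at 1.19 and Asns at 0.73 at 6 h and 1500 mg/kg, and Atf3 at 2.92 and Fgf21 at 1.56 at 24 h and 1500 mg/kg. With the 4 groups of a time difference alone, the 1500 mg/kg steps that lost their call were Trib3 1.83 and Fgf21 1.34 from 6 to 24 h, and Atf3 2.63, Asns 1.01 and Fgf21 1.63 from 3 to 24 h, while Atf3 at 2000 mg/kg from 3 to 24 h, 2.32, gained one. The unadjusted exact permutation test passed at 3 h for Trib3 (p = 0.0173, 0.0108 and 0.0238 at 150, 1500 and 2000 mg/kg) and for Atf3 at 2000 mg/kg (p = 0.00433). Fewer rats or groups bear on several of these, and the other causes were not tested. Of the list counts, 62 moved by more than 1.5 times and 202 did not. Those that moved were 36 of 66 when a difference of at least 1 was asked for as well, 26 of 66 with the compared groups alone, and 0 of 66 each with arrays centred on their median or exact zeros as missing. With the compared groups alone the calls in either direction at 6 h and 1500 mg/kg went from 4 to 2 for the transcription factors, from 2 to 0 for the transporters, from 7 to 3 for growth and death, from 5 to 2 for the endoplasmic reticulum and from 6 to 1 for AP-1. At 6 h and 2000 mg/kg they went from 4 to 7 for the endoplasmic reticulum and from 5 to 9 for AP-1. At 24 h and 2000 mg/kg they went from 10 to 6 for AP-1, from 5 to 3 for PPAR-alpha targets and from 2 to 1 for FGF21 receptors and signalling. With a difference of at least 1 as well, at 24 h and 2000 mg/kg, they went from 10 to 2 for the eIF2 arm, from 8 to 4 for tRNA charging, from 9 to 0 for the endoplasmic reticulum, from 5 to 1 for PPAR-alpha targets, from 2 to 1 for FGF21 receptors and signalling and from 19 to 11 for NRF2 targets. Marker counts were not recomputed. No paired analysis was possible because the rat numbers differ between groups.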
